A study of Mus musculus with 37 samples.

Results

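The transcripts described here are 8 genes measured in brown adipose tissue (BAT) of the BXD mouse family, out of 24657 gene symbols on 41155 probe sets. Of these, 6 are genes that neurons express at high levels (*Snap25*, *Vsnl1*, *Cdr1*, *Pcp4*, *Gpm6a* and *Syt1*). They were chosen because their measured values in 1 strain, BXD65, lay far above those of the other strains. The remaining members, *Th* and *Dbh*, were added because they mark the sympathetic nerves that reach BAT. Each gene was taken from the probe set that carries its symbol, and each of the 8 had 1 probe set.

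The BXD strains are recombinant inbred lines, each a fixed mixture of the genomes of C57BL/6J and DBA/2J. BAT was taken from male mice at 29 weeks of age that had been kept on chow for life and fasted overnight. RNA from about 5 mice of a strain was pooled and hybridised to 1 array, for 35 BXD strains and both parents, 37 arrays in all. No allele, agent or diet separated the arrays other than the strain itself, so BXD65 is 1 pool measured once, and its own spread is unknown. Values are in rescaled units, in which every array has a mean of 8 and a standard deviation (SD) of 2. A fold change is therefore only nominal: it holds if the log2 values had an SD of 2 before they were rescaled.

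Neurons release transmitter when calcium enters the nerve ending and vesicles fuse with the membrane, a step driven by the SNARE proteins and timed by synaptotagmins. BAT is densely supplied by sympathetic axons that release noradrenaline, which starts heat production. The cell bodies of these axons, where most of their RNA is made, lie in ganglia outside the tissue, and a BAT sample holds mainly fat cells, endothelium, blood and some neighbouring muscle. In a tissue extract, a change in the number of cells of a type and a change in RNA per cell cannot be told apart.

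Promoter windows of 300 bases, from 250 before to 50 after the annotated transcript start, were read from RefSeq (GRCm38.p6) and matched 7 of the 8 members by symbol (all but *Snap25*), with 10 windows between them. Windows are shown for *Syt1* and *Cdr1*, which were high in BXD65, and for *Th* and *Dbh*, which were not, to show where the letters of motifs known from neuronal genes stand. Capitals mark TGACG, the first letters of the cyclic AMP response element (CRE, TGACGTCA), GGACAG, the right arm of the RE1 element bound by the neuronal gene repressor REST, and GGAAGAC, the letters of the miR-7 seed, each on either strand.
Syt1, chr10:109010926-109011225, minus strand: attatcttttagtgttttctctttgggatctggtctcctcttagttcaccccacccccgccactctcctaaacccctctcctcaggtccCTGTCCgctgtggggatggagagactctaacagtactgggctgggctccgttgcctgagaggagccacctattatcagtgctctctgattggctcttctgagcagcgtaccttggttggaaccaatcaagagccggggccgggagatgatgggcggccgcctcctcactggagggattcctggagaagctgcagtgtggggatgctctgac
Cdr1, chrX:61185509-61185808, minus strand: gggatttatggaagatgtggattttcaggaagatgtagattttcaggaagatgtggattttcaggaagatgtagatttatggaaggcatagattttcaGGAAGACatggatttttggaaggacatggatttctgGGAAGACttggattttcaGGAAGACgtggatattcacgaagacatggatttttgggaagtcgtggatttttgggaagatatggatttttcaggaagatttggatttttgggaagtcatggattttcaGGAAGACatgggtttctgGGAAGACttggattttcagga
Th, chr7:142899946-142900245, minus strand: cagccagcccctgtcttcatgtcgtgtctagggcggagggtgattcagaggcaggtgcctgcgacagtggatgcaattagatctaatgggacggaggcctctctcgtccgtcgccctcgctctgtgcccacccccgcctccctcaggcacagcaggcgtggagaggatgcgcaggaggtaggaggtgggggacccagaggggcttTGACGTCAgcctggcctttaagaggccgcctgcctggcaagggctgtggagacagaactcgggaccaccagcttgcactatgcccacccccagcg
Dbh, chr2:27165257-27165556, plus strand: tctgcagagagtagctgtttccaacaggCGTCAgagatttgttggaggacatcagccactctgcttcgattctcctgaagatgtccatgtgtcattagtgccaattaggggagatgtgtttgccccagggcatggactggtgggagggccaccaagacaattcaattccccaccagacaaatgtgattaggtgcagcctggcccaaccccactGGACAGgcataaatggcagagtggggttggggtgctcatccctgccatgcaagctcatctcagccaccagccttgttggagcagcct

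The complete CRE stood in the *Th* window alone among the members, from position -45 relative to the start, and in 1.79% of all 32851 windows of the same length. TGACG, which lies inside the CRE, was found in *Th* and *Dbh* and in 20.8% of all windows. GGACAG was found in *Syt1* and *Dbh* and in 22.2% of all windows. The TATA box letters TATAAA, searched as well, were found in 1 window of *Gpm6a* and in 13.6% of all windows. No motif searched was found in all the members that had a window. The *Cdr1* window differed from the rest in its repeats. It held GGAAGAC 5 times, on either strand, the highest number in any window, and only 5 of the 32851 windows held it 3 times or more, although 5.32% held it at least once. These letters are the seed, bases 2 to 8, of miR-7a, printed here with the seed in capitals.
mmu-miR-7a-5p: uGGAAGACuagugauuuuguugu

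The *Cdr1* locus is known for a circular RNA made from the opposite strand that binds miR-7, and the sense letters shown here are the complement of its sites. The circular RNA was not matched to any probe set, and its level is not given. The strand that the *Cdr1* probe set reads was not settled, so its values may include RNA from the opposite strand.

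BXD65 stood above all other 34 BXD strains for the 6 neuronal members and inside their range for *Th* and *Dbh*. The difference from the median of the other strains ran from 1.54 to 3.60 units for the 6. It was close to 0 for the pair of sympathetic markers. Since the 6 were chosen on these values, the differences are a description and carry no test. Over all probe sets, BXD65 was the highest BXD strain in 3.39% and lay at least 1 unit above the median of the others in 0.462%. It was the lowest in 2.65% and at least 1 unit below the median in 0.872%. The median difference over all probe sets was 0.01 units, with the 5th percentile at -0.46 and the 95th at 0.44.

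**Figure D1:**
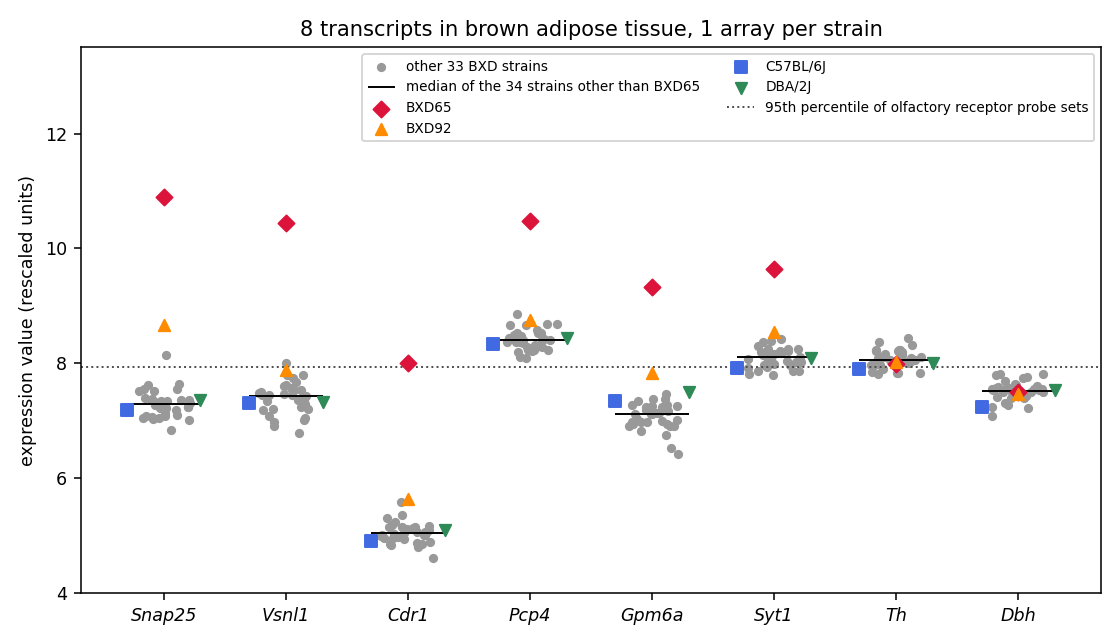
Expression value (rescaled units) of the 8 transcripts on 37 arrays, with 1 point per strain. Grey points are 33 BXD strains, the black line is the median of the 34 strains other than BXD65, coloured points are BXD65, BXD92 and both parents, and the dotted line at 7.94 is the 95th percentile of olfactory receptor probe sets. BXD65 lies above every other strain for the first 6 transcripts and within the cloud for *Th* and *Dbh*.

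The vesicle release machinery was represented by *Snap25* and *Syt1*. SNAP25 is a SNARE protein of the nerve terminal membrane, and *Snap25* was 10.90 in BXD65 and ran from 6.84 in BXD103 through a median of 7.30 to 8.68 in BXD92 over the other strains. BXD65 exceeded the measured median by 3.60 units and the next strain by 2.22 units, while the SD of the other 34 strains was 0.34. *Syt1* encodes synaptotagmin 1, the calcium sensor of fast release. It was 9.65 in BXD65 against 7.80 in BXD103, a median of 8.11 and 8.55 in BXD92 (SD 0.18). The difference was 1.54 units, nominally 2.91-fold.

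*Vsnl1* and *Pcp4* encode small proteins of calcium signalling. VSNL1 is a calcium sensor of the visinin family, and PCP4, first known from Purkinje cells, binds calmodulin. *Vsnl1* was 10.45 in BXD65, and the others ran from 6.78 in BXD70 through 7.44 to 8.01 in BXD69. The gap to the next strain was 2.44 units. *Pcp4* was 10.48 in BXD65, and the others ran from 8.10 in BXD48 through 8.40 to 8.87 in BXD69. The differences from the median were 3.01 and 2.08 units, and BXD65 did not overlap with any other array for either gene.

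*Gpm6a*, a tetraspan membrane glycoprotein of growing neurites, was 9.33 in BXD65. The other strains lay between 6.43 in BXD98 and 7.84 in BXD92, with a median of 7.13 and a difference of 2.20 units. *Cdr1* was 8.004 in BXD65 and 4.61 in BXD49, 5.05 at the median and 5.64 in BXD92. Its measured difference from the median was 2.96 units, yet its value in BXD65 was only just above the background limit set by olfactory receptor genes, which BAT does not use. That limit was the 95th percentile of 1128 olfactory receptor probe sets, 7.94. Against it, *Cdr1* and *Gpm6a* were below background in every other strain, *Vsnl1* was above it in 1 and *Snap25* in 2, whereas *Syt1* was above it in 28 and *Pcp4* in all 34. For the 4 whose median lay below the limit, the difference rests on values not above background, and BXD65 exceeded the limit itself by 2.96 units for *Snap25*, 2.51 for *Vsnl1*, 1.38 for *Gpm6a* and 0.06 for *Cdr1*.

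The enzymes of noradrenaline synthesis did not share the pattern. *Th*, tyrosine hydroxylase, the rate-limiting step, was 7.995 in BXD65, the 25th highest of 35. In the others it ran from 7.81 in BXD89 through 8.06 to 8.44 in BXD96 (SD 0.16), a difference of -0.07. *Dbh*, dopamine beta-hydroxylase, which makes noradrenaline inside the vesicle, was 7.50 in BXD65, the 24th highest, and ran from 7.09 in BXD90 through 7.52 to 7.82 in BXD49 (SD 0.17), a difference of -0.03. *Dbh* was below the background limit on every BXD array, so its level was not distinguishable from background here. *Th* was above the limit in 28 of the other 34, but close to it. Its median in these strains was 8.06 against a limit of 7.94, and its BXD65 value exceeded the limit by only 0.05 units.

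Both parents lay within the range of the 34 strains for all 8 transcripts. *Snap25* was 7.20 in C57BL/6J and 7.36 in DBA/2J, and *Vsnl1* was 7.30 and 7.32. *Dbh* was 7.25 in C57BL/6J and 7.54 in DBA/2J, both below the background limit. Neither parent approached the values of BXD65 for any of the 6.

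Over all probe sets, the median correlation of the BXD65 array with the other BXD arrays was 0.978, the 5th lowest in a range from 0.974 to 0.982. Liver transcripts set apart BXD70 and DBA/2J, whose mean over 15 liver genes was 12.50 and 10.76 against a median of 7.75 over the other strains and 7.72 in BXD65. A gap of at least 1 unit to the next strain that also exceeded the whole range of the other 34 was seen for 7 probe sets, namely the 6 neuronal members and 1 probe set without a gene name. The 6 were chosen for high values in BXD65, so their presence among the 7 is a description and no separate result. Of the 190 probe sets at least 1 unit above the median, 101 had a gene name, and 31 of these were copies annotated to *Snord116*, a cluster of small nucleolar RNAs with many near-identical members whose probe sets held only 2 different sets of values.

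The non-member genes with the widest gap between BXD65 and the next strain were in 6 of 10 cases genes known from neurons and glia. *Gria2*, an AMPA receptor subunit, was 8.34 in BXD65 and between 6.46 and 7.35 in the others. *Cntn1*, a contactin of axons and their glia, was 8.50 and between 6.99 and 7.53. *Sst*, somatostatin, was 9.42 and between 8.16 and 8.70. *Aplp1* (gap 0.73 units), a relative of the amyloid precursor protein, *Glrb* (0.71), the glycine receptor beta subunit, and *Slc1a2* (0.74), a glutamate transporter of astrocytes, are also known from nervous tissue. The other 4 of the 10 were *Snord116* (gap 1.34), *Mir290* (0.87), *Hdac5* (0.72) and *Car12* (0.71). *Mir290* and *Glrb* were below the background limit even in BXD65, at 6.43 and 6.98.

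Broader neuronal lists were higher in BXD65 too, by less than the members were. These lists, like the members, were drawn up with results of these data known, and the members were left out of them. Of 31 pan-neuronal genes, 29 were above the median of the other strains in BXD65 and 11, or 35.5%, were above all 34, against 3.39% of all probe sets. Their median difference was 0.33 units. *Map2*, which binds dendritic microtubules, differed by 0.95, *Basp1* by 0.82 and *Eno2* by 0.80, and all 3 were above every other strain. In no other strain were more than 3 of the 31 the highest.

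Of 26 genes of synaptic vesicle release, 8 were above all 34 strains and 22 above the median, with a median difference of 0.33. The largest differences were those of *Sv2b* (0.82), a vesicle glycoprotein, *Syn1* (0.62), which tethers vesicles, and *Rims1* (0.60), a scaffold of the active zone. *Sncg*, *Vamp2* and *Nsf* were the brightest of the list. *Nsf* was above every other strain by 0.12 units, while *Sncg* and *Vamp2* were within the range. Of 24 brain neuron genes, 11 were above all 34 and 21 above the median, with *Gria2* (1.37), *Olfm1* (1.15) and *Nrgn* (0.92) in front. The 3 that were not above the median were *Calb2* and *Tbr1*, at -0.005 and -0.05, and *Pvalb* at -2.74, a calcium buffer of interneurons that fast muscle fibres also make in quantity. Of 12 chromaffin and neuroendocrine genes, 5 were above all 34, all of them parts of dense-core granules: *Scg3* (0.85), *Pcsk2* (0.82), *Scg2* (0.68), *Chgb* (0.68) and *Chga* (0.54).

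The markers of peripheral nerve and of cerebellar neurons behaved otherwise. Of 21 sympathetic neuron genes other than *Th* and *Dbh*, 0 were above all 34 strains and 12 were above the median, and the differences ran from -0.37 for *Eya1* to 0.30 for *Ret*, with a median of 0.03. Of these 21 genes, 8 had a mean above the background limit, as did 13 of the 31 pan-neuronal, 16 of the 26 vesicle release, 5 of the 24 brain neuron and 3 of the 12 chromaffin genes. *Phox2a*, a factor that specifies noradrenergic neurons, differed by -0.36, and *Slc6a2*, the noradrenaline transporter, by -0.02. Of 16 sensory neuron genes and 12 cerebellar neuron genes, 0 were above all 34 in either list, with median differences of 0.09 and 0.06. Of 7 cholinergic genes, 1 was, *Slc18a3*, the vesicular acetylcholine transporter, by 0.01 units. Only 3 of the 16 sensory, 4 of the 12 cerebellar and 1 of the 7 cholinergic genes had a mean above the background limit. Of 20 Schwann cell genes, 1 was above all 34 and 3 were below all, with a median difference of 0.02. Among central glia, 1 of 10 oligodendrocyte genes (*Mobp*) and 2 of 10 astrocyte genes (*Slc1a2*, *Aldoc*) were above all 34. The oligodendrocyte genes had a median difference of 0.19, with 8 of 10 above the median, and their mean in BXD65 was the 2nd highest of 35. For the astrocyte genes the median difference was 0.03, with 5 of 10 above the median, and their mean was the 13th highest.

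**Figure D2:**
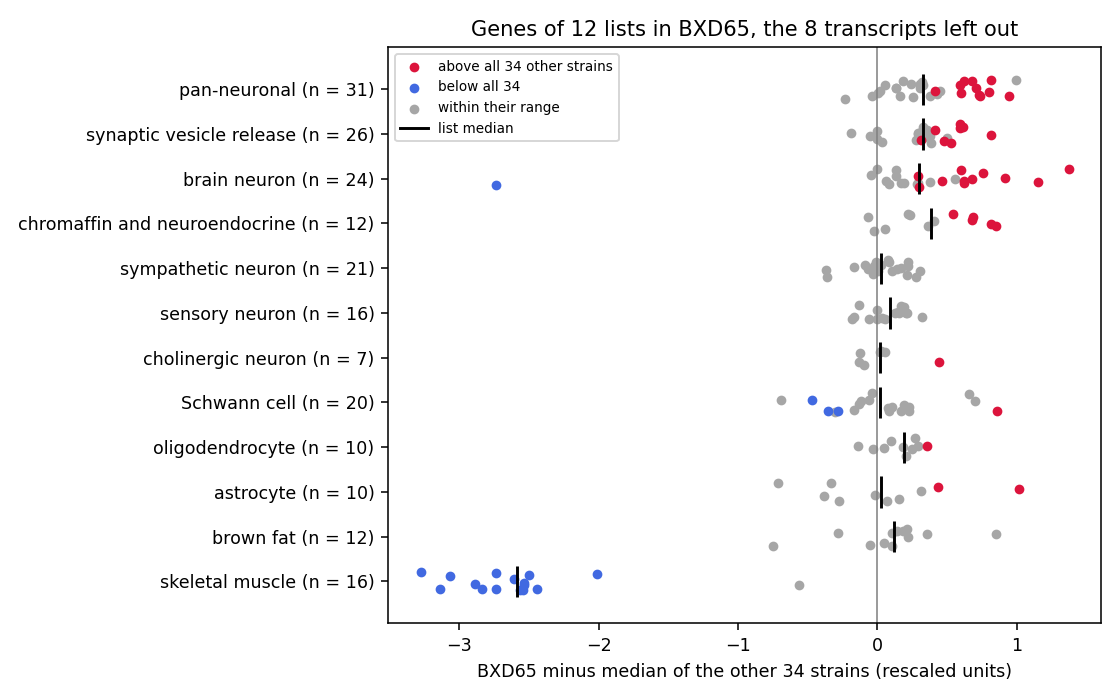
Difference between BXD65 and the median of the other 34 BXD strains (rescaled units, x axis) for the genes of 12 lists (y axis), 1 point per gene, with the 8 transcripts left out. Red points are genes above all 34 strains, blue points genes below all 34, and black bars list medians. The pan-neuronal, vesicle release, brain neuron and chromaffin lists lie to the right with medians from 0.30 to 0.39, the sympathetic list centres on 0.03 and the muscle list on -2.58.

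Close relatives of the members followed only in part. *Gpm6b*, a relative of *Gpm6a*, was above all 34 strains, by 0.67 over the median. Of 11 calcium sensors related to *Vsnl1*, 3 were above all, *Hpcal4* (0.80), *Ncs1* (0.74) and *Kcnip4* (0.60). Of 21 other synaptotagmins and relatives, 2 were, *Syt5* (0.73) and *Syt8* (0.44, and ahead of the next strain by 0.003). Of 7 genes related to *Pcp4* through calmodulin binding, 2 were, *Nrgn* (0.92) and *Gap43* (0.60), whereas *Pcp4l1*, the nearest relative of *Pcp4*, differed by -0.42.

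What noradrenaline is known to switch on in BAT showed little difference. Of 18 genes of the beta-adrenergic response, 1 was above all 34 strains, the beta-1 receptor gene *Adrb1* by 0.06 units, and the median difference was 0.07. *Ucp1*, the uncoupling protein of heat production, was 15.61 in BXD65 and ran from 14.82 through 15.39 to 15.69 in the others. *Dio2*, the deiodinase induced by cold, differed by 0.85 and *Elovl3*, a fatty acid elongase, by -0.75, both within wide ranges. Of 12 brown fat genes, 0 were above or below all 34, with differences from -0.75 to 0.85 and 9 of the 12 above the median. Of 8 genes of noradrenaline breakdown and uptake, *Slc22a2* alone was above all, by 0.07 units. In this list 6 of 8 were above the median, with a median difference of 0.14 and a largest of 0.94. Of 15 genes of nerve growth and guidance in fat, *Clstn3* alone was above all, by 0.01 units. Here 12 of 15 were above the median, with a median difference of 0.18. The means of both lists were nevertheless higher in BXD65 than in any other BXD strain, by little. They were 10.22 against at most 10.19, and 8.87 against at most 8.84.

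Muscle transcripts and most blood transcripts were low on the same array. The mean of 16 skeletal muscle genes was 10.004 in BXD65, the lowest of 35, and ran from 10.63 through 12.61 to 13.52 in the others. All but *Myl1* were below all 34 strains, with *Myh2*, a fast myosin heavy chain, at -3.28. The mean of 5 blood genes was also the lowest of 35, at 8.33 against 8.49 to 9.25, and *Hba-a2*, an alpha globin, differed by -1.30. Of these 5 blood genes, 3 were below all 34 strains, but 2 were above the median, by at most 0.27, and 1 was above all 34. At the neuromuscular junction and among genes of muscle denervation, 0 of 14 were above all. Over the other 34 strains, no member correlated with the muscle mean past a permutation p of 0.05 for r. Pearson's r between the 8 members and that mean ran from -0.14 for *Snap25* to 0.32 for *Th*, and the lowest permutation p was 0.063, that of *Th* (n = 34, two-sided, 8 relations, unadjusted). For *Th*, rho was 0.35 with a permutation p of 0.047 before any adjustment, and r was 0.38 without BXD85 and BXD95, the 2 strains farthest from the median of the muscle mean. *Cdr1* depended on these 2 strains most, with r of 0.01 with them and 0.45 without. Whether the low muscle content of the BXD65 pool has a part in its neuronal values was not tested.

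**Figure D3:**
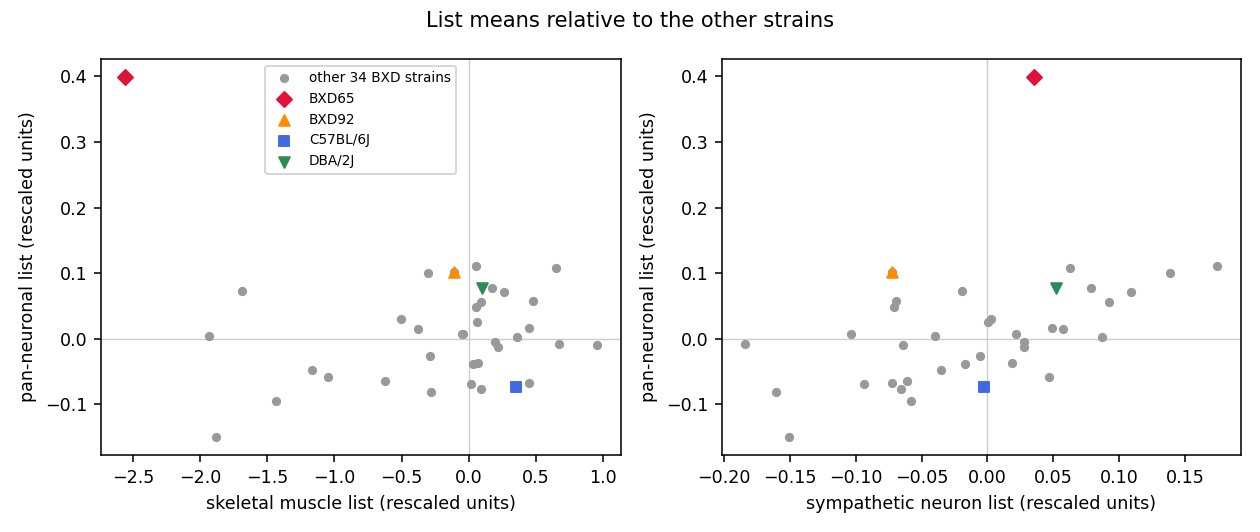
Mean of the pan-neuronal list (y axis) against the mean of the skeletal muscle list (left) and of the sympathetic neuron list (right), each relative to the medians of the 34 strains other than BXD65 (rescaled units), 1 point per strain and 1 for each parent. BXD65 is alone at the top of both panels, at the far left for muscle and in the middle for sympathetic genes.

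A second strain ranked high for the same neuronal transcripts, at a smaller scale and in part below the background limit. BXD92, singled out after its values had been seen, was the highest of the other 34 for *Snap25*, *Cdr1*, *Gpm6a* and *Syt1* and the 2nd highest for *Vsnl1* and *Pcp4*, behind BXD69 in both. It was the highest of the 34 in 2.11% of all probe sets. *Snap25* was 8.68 in BXD92, 1.38 units above the median and 0.53 above BXD95, the next strain, at 8.15. The remaining differences in BXD92 were 0.71 for *Gpm6a*, 0.59 for *Cdr1*, 0.45 for *Vsnl1*, 0.44 for *Syt1* and 0.36 for *Pcp4*. *Vsnl1* (7.89), *Gpm6a* (7.84) and *Cdr1* (5.64) were below the background limit of 7.94 in BXD92. The means of the pan-neuronal, vesicle release, brain neuron and chromaffin lists were above the medians in this strain too. It was the highest of the 34 for none of them, and the highest strain is given beside it. Relative to the medians, its pan-neuronal mean was 0.10, against 0.11 in BXD66. Its vesicle release mean was 0.05, against 0.21 in BXD69. The brain neuron mean was 0.10, against 0.15 in BXD50, and the chromaffin mean 0.11, against 0.13 in BXD71. *Th* ranked 22nd in BXD92 and *Dbh* 25th. BXD92 was also the next strain after BXD65 for *Snord116*, *Gria2* and *Car12* among the 10 genes of the widest gaps. *Car12*, a carbonic anhydrase, was 9.62 in BXD92 and 10.33 in BXD65, against a median of 7.90.

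Covariation was examined in the 34 strains without BXD65. Their values entered the choice of members as the level that BXD65 exceeded, while their covariation was no part of the rule. All 15 pairs among the 6 neuronal members had a positive r, from 0.10 to 0.52 with a median of 0.36. Of these, 9 had an unadjusted permutation p under 0.05 (two-sided, 100000 permutations, n = 34), and 3 had one for Spearman's rho. None of the 13 pairs with *Th* or *Dbh* did for either measure, and their r ran from -0.27 to 0.20. *Th* and *Dbh* themselves gave r = -0.07 (permutation p = 0.674) and rho = -0.12 (permutation p = 0.481).

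With limma fitted across all probe sets with each member in turn as the covariate, 0 of the 28 pairs passed an adjusted p of 0.05 in both directions. The lowest adjusted p of any pair was 0.068, for *Vsnl1* on *Pcp4*. The share of all probe sets called was 0% for *Snap25*, *Vsnl1*, *Cdr1*, *Gpm6a*, *Syt1*, *Th* and *Dbh*, and 0.513% for *Pcp4*. Before adjustment, between 1584 probe sets (*Gpm6a*, 3.85%) and 7811 (*Pcp4*, 18.98%) of 41154 had a p under 0.05.

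The 3 pairs among *Snap25*, *Vsnl1* and *Pcp4* were the ones with a permutation p under 0.05 for both r and rho. Many other probe sets covaried with these genes before adjustment. The share of all probe sets with an unadjusted limma p under 0.05 was 6.85% for *Snap25*, 9.81% for *Vsnl1* and 18.98% for *Pcp4*. *Vsnl1* and *Pcp4* gave r = 0.52 (permutation p = 0.0015) and rho = 0.44 (permutation p = 0.010), and r = 0.49 without BXD69 and BXD70, the 2 strains farthest from the median of *Vsnl1*. *Snap25* and *Pcp4* gave r = 0.51 (permutation p = 0.0022) and rho = 0.45 (permutation p = 0.0084). *Snap25* and *Vsnl1* gave r = 0.50 (permutation p = 0.0023) and rho = 0.46 (permutation p = 0.0069). Without BXD92 and BXD95, the 2 strains farthest from the median of *Snap25*, r was 0.54 and 0.50 for these pairs. Leaving out any single strain kept the permutation p of all 3 under 0.05, with r between 0.42 and 0.58.

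The other 6 of the 9 pairs rested on BXD92. *Snap25* and *Cdr1* fell from r = 0.49 (permutation p = 0.0066) to 0.24 without it (permutation p = 0.183), and rho over the 34 strains was 0.27. *Snap25* and *Gpm6a* fell from r = 0.50 (permutation p = 0.0048) to 0.24 (permutation p = 0.166), with rho 0.24. *Snap25* and *Syt1* fell from r = 0.46 (permutation p = 0.0065) to 0.24 (permutation p = 0.172), with rho 0.18. Without both BXD92 and BXD95, r was 0.06, 0.14 and 0.04 for these 3 pairs. *Cdr1* and *Syt1* (r = 0.36), *Pcp4* and *Gpm6a* (r = 0.38) and *Gpm6a* and *Syt1* (r = 0.36) fell to 0.19, 0.27 and 0.19 without BXD92, with permutation p of 0.283, 0.133 and 0.283. The first of these also lost its p under 0.05 without BXD49 (r = 0.30) or BXD95 (r = 0.31), the second without BXD98 (r = 0.33), and the third without BXD49 (r = 0.33), BXD75 (r = 0.33), BXD95 (r = 0.33) or BXD98 (r = 0.27). Of the pairs with a p over 0.05, *Vsnl1* and *Gpm6a* came under it without BXD98 (r = 0.35), *Vsnl1* and *Syt1* without BXD69 (r = 0.37) or BXD70 (r = 0.38), *Pcp4* and *Syt1* without BXD69 (r = 0.41), and *Cdr1* and *Gpm6a* without any of BXD66, BXD71, BXD75, BXD85, BXD87, BXD90 or BXD98 (r from 0.35 to 0.41). Over all 15 pairs the median r without BXD92 was 0.19, and 14 stayed positive.

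**Figure D4:**
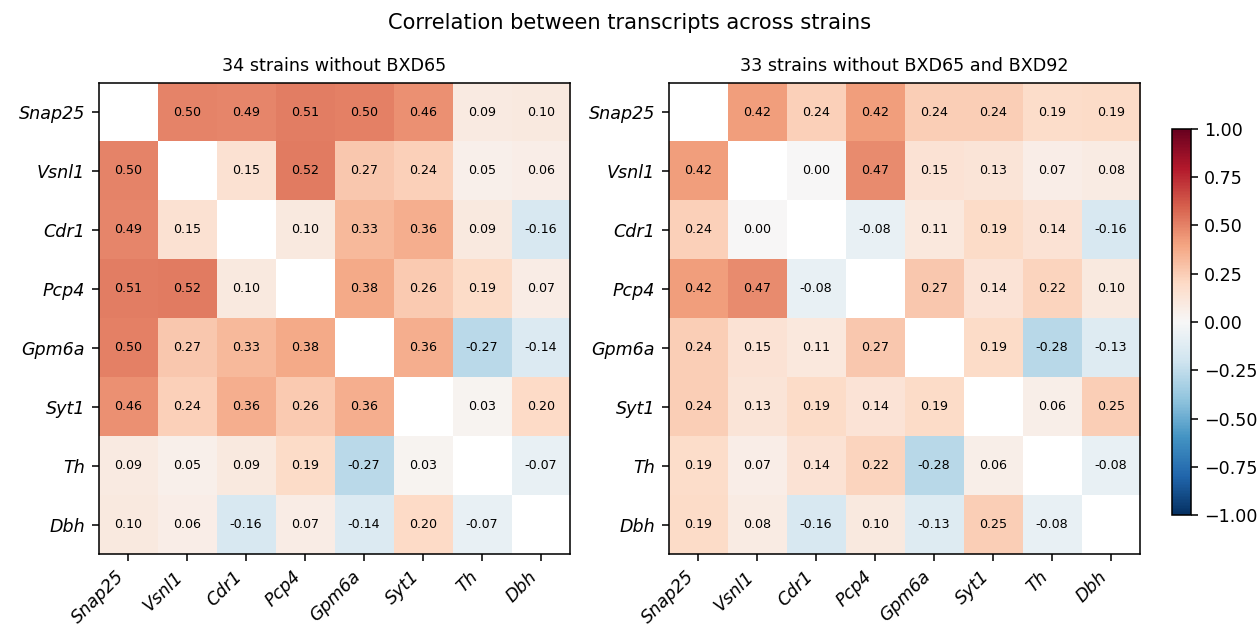
Pearson's r between each pair of the 8 transcripts (colour scale from -1 to 1, value in each square) over 34 strains without BXD65 (left) and 33 strains without BXD65 and BXD92 (right). The squares among the first 6 genes pale from a median of 0.36 to 0.19, and those linking *Snap25*, *Vsnl1* and *Pcp4* remain between 0.42 and 0.47.

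**Figure D5:**
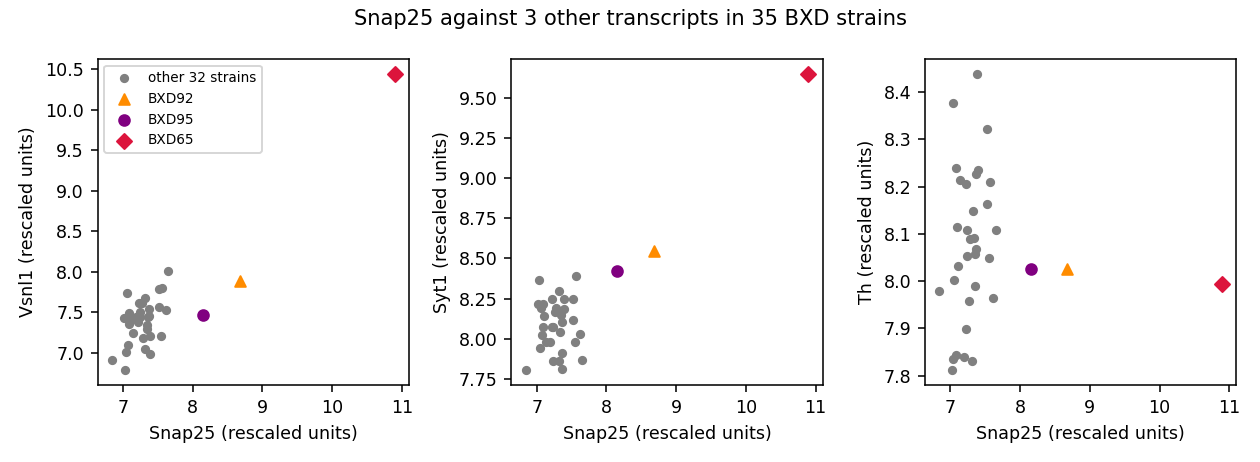
*Vsnl1*, *Syt1* and *Th* (y axes) against *Snap25* (x axis), all in rescaled units, with 1 point for each of 35 BXD strains. BXD65 lies up and to the right of the other strains for *Vsnl1* and *Syt1*. BXD92 is the next highest for *Syt1* and is behind BXD69 for *Vsnl1*. Both lie within the range of the others for *Th*.

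No list gene of the neuronal, glial or sympathetic lists covaried with *Snap25* or *Th* at an adjusted p under 0.05 in limma over the 34 strains. Before adjustment, 6.85% of all probe sets had a p under 0.05 with *Snap25*. Among the lists, 5 of 31 pan-neuronal genes, 4 of 24 brain neuron genes, 3 of 20 Schwann cell genes and 2 of 10 astrocyte genes did. Only 1 of 26 vesicle release, 1 of 12 chromaffin, 1 of 16 sensory and 1 of 12 cerebellar genes did. None did of 21 sympathetic, 7 cholinergic or 10 oligodendrocyte genes.

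Of the 24 genes most alike to the members over the 34 strains, 3 for each, 14 were below the background limit. *Cacng2*, an auxiliary subunit of AMPA receptors, was the nearest to *Snap25* (r = 0.71), and its adjusted p in limma was 0.178. The nearest to *Vsnl1* were *Whrn* (r = 0.65) and the synaptotagmin *Syt2* (r = 0.64), and the nearest to *Pcp4* were *Nkx2-4* (r = 0.73), *Pigz* (r = 0.71) and *C1qtnf6* (r = 0.71), each with an adjusted p of 0.028 in limma. *Gpm6a* was nearest to *Vps33b* (r = 0.56) and *Snapin* (r = 0.55), *Syt1* to *Fam180a* (r = 0.61), *Cdr1* to *Etohi1* (r = 0.64), *Th* to *Krt82* (r = 0.63) and *Dbh* to *Gart* (r = 0.67). In BXD65 these genes differed from the median by no more than 0.36 units.

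*Pcp4* alone had transcripts past the limma threshold, 211 probe sets with 109 positive and 102 negative slopes, and none of them was a member. The number was not stable. It was 0 under quantile normalization and with the first principal component of the arrays as a covariate, 3 with arrays centred on their median, 337 with both parents included and 713 with ranks. It fell to 0 without BXD62, 1 without BXD99, 21 without BXD51, 51 without BXD69, 68 without BXD83, 72 without BXD85, 84 without BXD103 and 139 without BXD66, and it rose to 540 without BXD48, 617 without BXD80 and 630 without BXD92.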

How the data were processed

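Total RNA of BAT was pooled from about 5 mice per strain and hybridised to Affymetrix mouse gene arrays. The submitters' processing notes name Affymetrix Expression Console, and the authors deposited 1 table of values. These are treated as a score, since the deposited values of every array have a mean of 8 and an SD of 2 and the log base is not given in the sources used here. Of 41345 probe sets, 190 array controls were left out.

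The members and gene lists were chosen with earlier results of these data known. Columns were assigned by strain name. A gene was represented by the probe set with the highest mean over the 35 BXD columns. Of 353 list genes in 26 lists, 350 were found, 4 by an older symbol. Named genes were the 8 members, the 10 other genes with the widest gap in BXD65, the 3 most alike to each member, and for each list the 3 largest differences and the 3 brightest. Some list genes that this rule picks are not reported here by name and enter the counts only. Genes named beyond this rule were picked after their values were seen.

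Covariation was tested with limma 3.58.1 (R 4.3.3) on 34 strains without BXD65, with each member as a continuous covariate and Benjamini-Hochberg adjustment over 41154 probe sets. The script was tested on simulated data. Pearson's and Spearman's correlations used 100000 permutations. With 1 array per strain there is no replicate error, and the number of arrays limits the precision. Promoter and miRNA sequences came from RefSeq (GRCm38.p6). The alternatives were other scalings, the parents, other covariates, filters and thresholds, and each strain left out. Correlations without BXD92, with BXD65, or with the muscle list regressed out were chosen after seeing the data.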

Additional observations from a re-analysis of the deposited data

How the results depend on the processing

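The 6 members highest in BXD65 were the same in number under quantile normalization, centring on the median, with the parents included and without each of the other 34 strains. The median difference over the 8 members, 2.14 units, ran from 2.13 to 2.15 over those settings and with the mean of the other strains in place of the median, and from 2.136 to 2.140 without single strains. Each member had 1 probe set, so averaging probe sets could not change the members. The number of list genes outside the members at least 1 unit higher in BXD65, 6, became 50 at a threshold of 0.5 units, which by its construction lists more. The 6 were 2 brain neuron, 1 astrocyte, 2 white fat and 1 liver gene, and the pan-neuronal, vesicle release and chromaffin lists had 0. Of all probe sets, 0.462% were at least 1 unit higher. At least 1 unit lower were 15 skeletal muscle genes, 2 blood genes, 1 white fat gene and 1 liver gene. *Pvalb*, 1 of these 15 muscle genes, is listed with brain neurons too. The number of member pairs that covaried in limma, 0 of 28, was 15 with BXD65 included, an outcome that the choice of members on BXD65 fixes, and 0 under every other alternative run, at an adjusted p under 0.01 and without each single strain (0 to 0). Of the 9 pairs with an unadjusted permutation p under 0.05, all 9 kept it under quantile normalization, centring and with the muscle list regressed out, 8 did with both parents, and 3 did without BXD92, without the 2 farthest strains, and by rho. No paired analysis was possible because the labels carry no replicate numbers and each strain has 1 array. Precision is set by 1 array per strain, and 5 of the 8 members lay below the background limit in most strains.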

Other observations

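Other cell types on the BXD65 array gave mixed values. *Retn*, the adipokine resistin, was 10.11 in BXD65 and below all other strains, which ran from 10.43 through a median of 12.01 to 13.01. *Lep*, leptin, was 12.79 against a median of 11.17 and was within the range of the others, and the median difference over 10 white fat genes was -0.13. *Cyp2e1*, a cytochrome listed with liver but bright on most of these arrays, was 9.11 in BXD65 and ran from 9.33 through 11.90 to 13.15 in the others. Of 9 endothelial genes and 9 lymphocyte genes, 0 were above all 34 strains, with median differences of 0.17 and -0.04.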
